A study of Mus musculus with 6 samples.

Results

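EphA receptors and ephrin-A ligands are the A class of the largest family of receptor tyrosine kinases and their cell-bound partners, and 10 of their genes were examined in mouse liver after a diet that damages the organ. The rule that picks them uses the gene name alone: they are the rows among 55416 gene IDs of the count table whose Ensembl ID carries the symbol Epha1, Epha2, Epha3, Epha4, Epha5, Epha7, Efna1, Efna3, Efna4 or Efna5. They comprise 6 receptors and 4 ligands, and the sums and shares given below cover these genes only. Each symbol matched a single row, and 9 of the 10 had at least 1 read. RNA of whole liver was sequenced from 6 male mice, 3 in each genotype. The KO mice carried floxed Ephb2 together with the PdgfrbCreERT2 driver, a tamoxifen-inducible recombinase made where the Pdgfrb promoter is active, which includes hepatic stellate cells and other mesenchymal cells. The WT mice carried floxed Ephb2 and no Cre. All 6 mice received tamoxifen for 5 days at an age of 8 to 10 weeks, followed by 8 weeks on the CDAA diet, which lacks choline and gives amino acids in place of protein, with 45% of its energy from fat, 0.1% methionine and 1% cholesterol. None of the 10 genes was itself targeted in either genotype. No mice with Cre but without the floxed allele are among the samples, so the deletion and the presence of Cre cannot be told apart. The labels number the replicates without saying how they relate, so every p-value measures the spread between these samples.

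Eph receptors sit in the plasma membrane and are activated by ephrins on a neighbouring cell, so that signalling needs cell contact. Ephrin-A ligands are held in the membrane by a glycolipid (GPI) anchor and bind mainly EphA receptors, whereas ephrin-B ligands span the membrane and bind mainly EphB receptors. Exceptions are known: EphA4 also binds ephrin-B ligands, and ephrin-A5 also binds EphB2, the product of the gene targeted here. The family takes its name from the erythropoietin-producing hepatocellular carcinoma line in which the human counterpart of Epha1 was found. In epithelia and vessels these proteins are known for roles in cell adhesion, repulsion and tissue boundaries, and in the nervous system for axon guidance.

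Total counts were 21160690 to 26339251 in the KO libraries and 21411113 to 23100862 in the WT libraries. Levels are given as CPM, counts scaled to a common library size, after scaling by TMM, edgeR's trimmed mean of M-values, and fold changes as log2 of KO over WT. The 11 hepatocyte markers measured summed to 63247 to 79864 CPM in KO and 70956 to 79075 CPM in WT liver, as the tissue label calls for. Of 12 cell type marker lists, 11 had summed levels that overlapped between the genotypes, and the cholangiocyte list did not. Of all genes tested, 11.1% did not overlap. Ephb2, the targeted gene, was measured at 6.01, 8.87 and 6.95 CPM in KO liver, against 9.46, 8.28 and 12.4 CPM in WT liver. The genotypes overlapped (log2 fold change -0.46, edgeR adjusted p = 0.850, exact two-sided permutation p = 0.2, for which 3 against 3 libraries allow no value below 0.1). Other liver cells keep Ephb2 in this design and all its exons are counted, so this checks the labels only weakly. Over the whole table, 0 of 17083 tested genes (0%) passed edgeR's quasi-likelihood test after Benjamini-Hochberg adjustment, 886 genes (5.19%) had an unadjusted p under 0.05, DESeq2 called 8 genes and limma-voom 0.

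Among the 10 genes, 1 ligand and 2 receptors stood highest in liver RNA, Efna1, Epha2 and Epha1. Because longer genes collect more reads, levels were compared between genes only as CPM per kilobase of exon (union of the exons of all transcripts). On this scale Efna1 stood highest, at 28.0 ± 4.27 in KO and 34.5 ± 8.72 in WT liver (SD, n = 3 each). Epha2 followed with 8.86 ± 1.17 CPM per kilobase in KO and 12.4 ± 2.09 in WT, and Epha1 with 9.99 ± 0.560 in KO and 9.59 ± 1.43 in WT (SD, n = 3 each). Efna5 was at 3.47 ± 0.322 in KO and 3.03 ± 0.492 in WT liver, close to the median of 3.69 CPM per kilobase over the tested genes with a known length. Epha7 (1.66 ± 0.237 in KO, 1.27 ± 0.264 in WT), Epha3 (1.37 ± 0.230 in KO, 1.302 ± 0.178 in WT), Efna4 (0.620 ± 0.214 in KO, 0.468 ± 0.0728 in WT) and Epha4 (0.201 ± 0.00867 in KO, 0.218 ± 0.0128 in WT) lay below it (CPM per kilobase, SD, n = 3 each). Of 16973 tested genes with a known length, 1254 (7.39%) had a higher mean level than Efna1, 3855 (22.7%) a higher one than Epha2 and 16258 (95.8%) a higher one than Epha4.

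**Figure D1:**
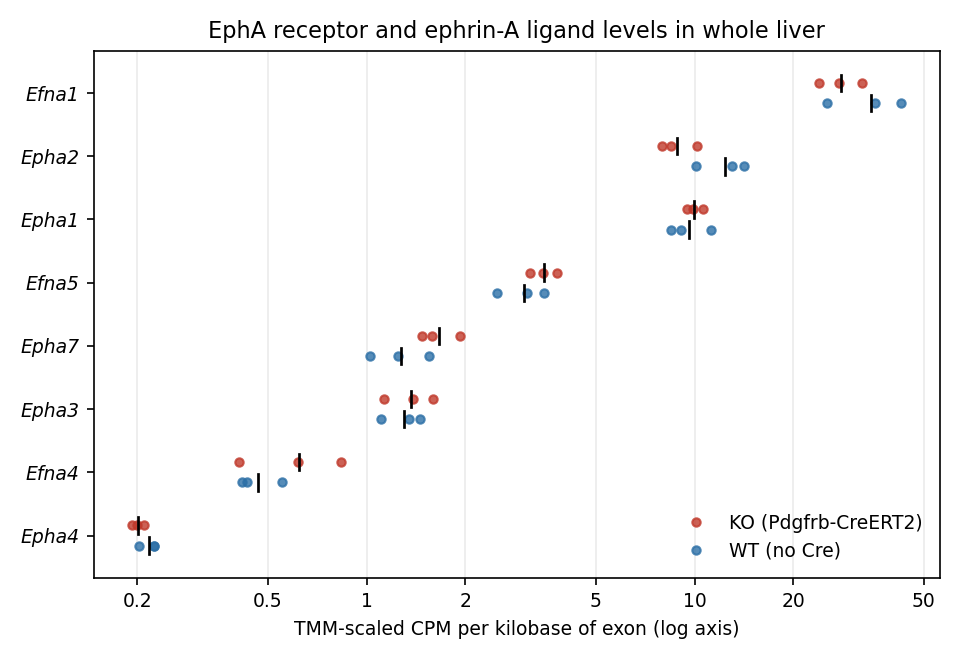
Level of the 8 members that passed the count filter in each library, as TMM-scaled CPM per kilobase of exon on a log axis, with KO libraries above WT libraries and a black bar at each mean (n = 3 each). Efna1 lies to the right of every other member in all 6 libraries, Epha2 and Epha1 share a range near 10, and Epha4 is lowest near 0.2.

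Most steps in this order exceeded the spread between libraries. Of the 7 neighbouring pairs among the 8 tested members, 5 kept their order in 6 of 6 libraries without overlap of their ranges (exact two-sided sign-flip permutation test on the log2 difference within libraries, p = 0.031 for each, the smallest that 6 libraries allow, and adjusted p = 0.0438 over the 7 pairs). Efna1 exceeded Epha2 by 2.94-fold per kilobase, Epha1 exceeded Efna5 by 3.02-fold, and Efna5 exceeded Epha7 by 2.24-fold. Epha3 exceeded Efna4 by 2.52-fold, and Efna4 exceeded Epha4 by 2.51-fold. The other 2 neighbours were not separated: Epha2 was above Epha1 in 3 of 6 libraries (exact permutation adjusted p = 0.562) and Epha7 above Epha3 in 4 of 6 (exact permutation adjusted p = 0.510). Transcripts actually present may be shorter than the union of exons, but the order was the same with the length of the longest transcript.

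Epha5 and Efna3 were near or at the detection limit. Epha5, a receptor known mainly from brain, had 0 reads in all 6 libraries, and a count of 0 allows up to 3 reads a library, or 0.114 to 0.149 CPM (counting error only). Its gene on chromosome 5 (GRCm38, 84054761 to 84417382, minus strand) has up to 18 exons. Efna3 had 1, 0 and 1 reads in the KO libraries and 0, 0 and 1 in the WT libraries, so no difference between the genotypes was detectable at this depth. The other 8 members passed the filter on low counts and were tested.

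No member passed the test between the genotypes, as was so of all 17083 genes tested, and Epha2 stood out from 0 the furthest. Among the 8 tested members 5 had a positive and 3 a negative log2 fold change, with a median of 0.07, against 8374 positive of 17083 genes and a median of -0.0048 over all genes tested. A single member, Epha2, had an unadjusted p under 0.05 and was lower in KO, which is 1 of 8 beside 5.19% of all genes in either direction and 2.10% that were lower. Of the higher members 0 had such a p, beside 3.08% of all genes. In 0 of the 8 members did the 3 KO libraries lie wholly above or below the 3 WT libraries in CPM, where 11.1% of all genes tested did so, 6.21% higher and 4.90% lower in KO.

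**Figure D2:**
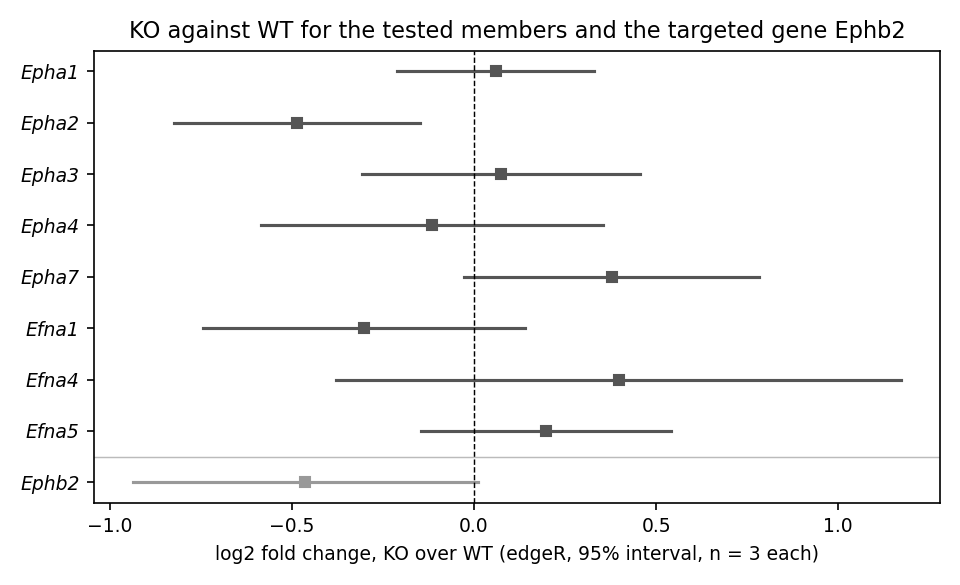
Log2 fold change of KO over WT for the 8 tested members, receptors above ligands, and for Ephb2 at the bottom, from edgeR with 95% intervals (n = 3 libraries per genotype). The interval of Epha2 (-0.82 to -0.15) lies below 0 before adjustment over all genes, and those of the other 7 members and of Ephb2 include 0.

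Epha2 encodes the main receptor for ephrin-A1 in epithelial cells and is known as a host factor for malaria parasites in hepatocytes. It lies on chromosome 4 of GRCm38 at 141301240 to 141329384 on the plus strand, with up to 17 exons. Its level was 47.6, 39.5 and 37.2 CPM in KO liver, against 66.0, 61.0 and 47.1 CPM in WT liver. The 3 KO libraries and WT replicate 3 sat together at the low end, KO replicate 1 lay just above WT replicate 3, and WT replicates 1 and 2 were higher than all others. The log2 fold change was -0.49 (SE 0.15, 95% interval -0.82 to -0.15, edgeR adjusted p = 0.850), so the difference did not pass. Before adjustment over all genes, edgeR gave a p of 0.0106 (model fitted across all genes). It was negative in 16 of 16 other settings, from -0.62 to -0.39, with an unadjusted p under 0.05 in each and an adjusted p of 0.436 to 1.00. In whole liver, fewer cells of a type and less RNA per cell cannot be told apart. Markers of some other liver cells had negative log2 fold changes, as Epha2 did. All 8 Kupffer cell markers were negative (median -0.73, 2 with an unadjusted p under 0.05). They summed to 769, 695 and 451 CPM in KO and 817, 661 and 1267 CPM in WT liver. All 10 sinusoidal endothelial markers were negative too (median -0.29, 1 with an unadjusted p under 0.05). Their sums were 898, 902 and 699 CPM in KO and 852, 841 and 1228 CPM in WT liver. Both sums were highest in WT replicate 3, the WT library with the least Epha2. Over all genes tested, 8709 of 17083 were negative and 2.10% were lower at that p. Negative values were not particular to these lists. Among tested markers, 9 of 11 hepatocyte, 7 of 11 vascular endothelial and 8 of 8 neutrophil markers were negative. Of 17 stellate cell and myofibroblast markers 9 were negative and 8 positive. Of 10 monocyte and macrophage markers 7 were positive and 3 negative, and of 13 cholangiocyte markers 11 were positive and 2 negative. None of these markers was at 0 over all libraries, 0 passed edgeR's adjusted test, and their part in the values of Epha2 and Efna1 was not tested.

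The promoter of Epha2 is shown because this receptor had the smallest p among the 8 tested members. Sequences are from RefSeq on GRCm38.p6, 300 bases from 250 before to 50 after the annotated start, read 5′ to 3′ on the strand of the gene. All 10 members matched, with 13 start sites. Capitals mark matches on either strand to 3 motifs, the GC box GGGCGG, the TATA motif TATAAA and the STAT motif TTCNNNGAA. These motifs were chosen after the values were known, and they occur in 35.7% (GGGCGG), 13.6% (TATAAA) and 8.30% (TTCNNNGAA) of 32851 promoters of this length. No matches overlapped in the sequences printed here. In Epha2 (chr4:141300971-141301270, plus strand) a single GC box begins 96 bases before the start, and the window holds 10 CpG dinucleotides, where the median promoter holds 7.
Epha2: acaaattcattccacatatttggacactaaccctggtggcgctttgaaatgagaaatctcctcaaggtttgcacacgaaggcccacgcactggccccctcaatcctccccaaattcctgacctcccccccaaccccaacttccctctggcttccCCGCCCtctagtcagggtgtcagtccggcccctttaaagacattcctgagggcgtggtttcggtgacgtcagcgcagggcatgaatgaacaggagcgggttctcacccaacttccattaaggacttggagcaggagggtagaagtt

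Epha1, an epithelial receptor that also binds ephrin-A1, differed little. Its gene spans 42358487 to 42373268 of chromosome 6 (minus strand) and has up to 18 exons. Its level was 41.6, 38.9 and 37.3 CPM in KO liver, against 44.0, 33.2 and 35.8 CPM in WT liver. The KO libraries fell inside the WT range (log2 fold change 0.06, SE 0.12, 95% interval -0.21 to 0.33, edgeR adjusted p = 0.922). Its exons share 236 bases, 6.0% of their length, with those of Zyx, the gene of the adhesion protein zyxin on the opposite strand. The strand setting of the counting is not given in the sources used here, so reads from this stretch cannot be assigned with certainty. Zyx itself was at 76.0 ± 5.94 CPM in KO and 80.8 ± 17.5 CPM in WT liver (SD, n = 3 each).

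The ratio of both main receptors to each other did not overlap between the genotypes, although each level did. Within each library, the level of Epha2 per kilobase was below that of Epha1 in all 3 KO livers, with log2 ratios of -0.06, -0.23 and -0.25. In all 3 WT livers it was above, with log2 ratios of 0.33, 0.62 and 0.14. The mean log2 ratio was -0.18 ± 0.11 in KO and 0.37 ± 0.24 in WT (SD, n = 3 each), a difference of -0.55 that does not depend on gene length or on scaling between libraries. The exact two-sided permutation p was 0.1, the smallest that 3 against 3 libraries allow. Epha2 accordingly held 43.2, 38.9 and 37.9% of the summed level of the 6 receptors in KO liver, against 50.6, 53.0 and 46.0% in WT liver. Epha1 held 44.9, 45.6 and 45.3% in KO, against 40.2, 34.4 and 41.6% in WT. This ratio was singled out after all 28 ratios between tested members had been computed. Of these, 5 did not overlap between the genotypes (17.9%), where 11.2% of all pairs of genes tested did not overlap. The ratios of members came from counts as they stand, and those of all pairs from log2 CPM with a prior count of 2. Both shares are therefore not measured quite alike. The other 4 were Epha2 to Efna5, Epha2 to Epha7, Efna5 to Epha4 and Epha7 to Epha4, and all 5 ratios share members, so they are not separate results.

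**Figure D3:**
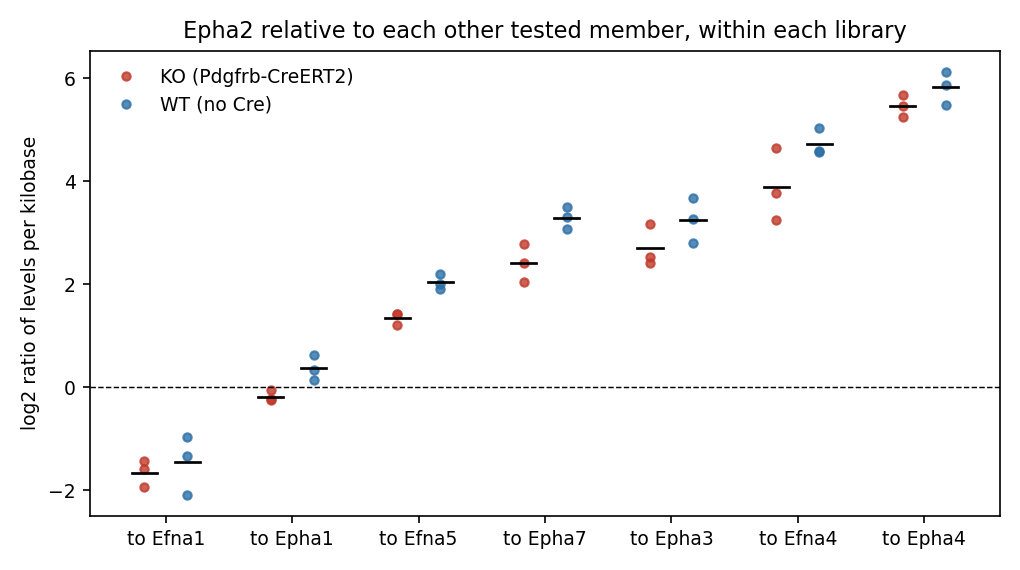
Log2 ratio of the level of Epha2 per kilobase to that of each other tested member within each library, with KO to the left of WT and black bars at the means (n = 3 each). The genotypes do not overlap for the ratios to Epha1, Efna5 and Epha7, all lower in KO, and they overlap for the other 4.

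Epha7 and Epha3 are guidance receptors best known from the nervous system and from mesenchyme. Epha7 (chromosome 4, 28813131 to 28967499, plus strand, up to 17 exons) stood at 14.6, 15.6 and 19.0 CPM in KO liver, against 12.3, 15.3 and 10.1 CPM in WT liver. KO replicate 3 was the highest library and WT replicate 3 the lowest, while KO replicate 1 lay below WT replicate 2. The log2 fold change was 0.38 (SE 0.18, 95% interval -0.03 to 0.78, edgeR adjusted p = 0.850). The 13 cholangiocyte markers, all with reads, summed to 1477, 1827 and 1751 CPM in KO and 1098, 1438 and 1357 CPM in WT liver, so this sum was higher in every KO library than in any WT library. Singly, 5 of the 13 did so, beside 6.21% of all genes tested. The most abundant marker, Spp1, was at 803, 1166 and 970 CPM in KO and 613, 805 and 834 CPM in WT liver, with overlap. Of these markers 11 were positive, 5 had an unadjusted p under 0.05 and 0 passed edgeR's adjusted test. The 5 of 13 at this unadjusted p, all higher in KO, stand beside 3.08% of all genes higher at that p. Their part in the values of Epha7, and in those of Epha2, which lay in the opposite direction, was not tested. The log2 fold change of Epha7 was 0.24 without WT replicate 3. Epha3 (chromosome 16, 63543534 to 63864175, minus strand, up to 17 exons) was at 9.85, 13.8 and 12.0 CPM in KO liver, against 9.61, 11.7 and 12.6 CPM in WT liver, with wide overlap (log2 fold change 0.07, SE 0.17, 95% interval -0.31 to 0.46, edgeR adjusted p = 0.930). Its sign changed when single libraries were left out.

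Epha4, the receptor that takes both ephrin classes, was scarce. Its gene on chromosome 1 (77367185 to 77515088, minus strand, up to 18 exons) had 33 to 43 reads a library. That gave 1.61, 1.55 and 1.69 CPM in KO liver, against 1.63, 1.81 and 1.82 CPM in WT liver. The KO libraries lay mostly below, with an overlap at KO replicate 3 and WT replicate 1 (log2 fold change -0.11, SE 0.20, 95% interval -0.58 to 0.35, edgeR adjusted p = 0.916).

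Efna1 encodes ephrin-A1, first found as a gene that tumour necrosis factor induces in endothelium. It held 86.7, 89.6 and 84.7% of the summed level of the 4 ligands in KO liver, against 91.0, 86.3 and 93.6% in WT liver. Its level was 50.4, 59.4 and 43.9 CPM in KO liver, against 65.1, 46.4 and 78.1 CPM in WT liver. KO replicate 2 and WT replicates 1 and 3 were the 3 highest libraries, and the genotypes overlapped (log2 fold change -0.30, SE 0.19, 95% interval -0.74 to 0.14, edgeR adjusted p = 0.850). The same 3 libraries held the most acute phase RNA, the transcripts of plasma proteins that hepatocytes release under inflammatory cytokines. The 16 acute phase genes, all with reads, summed to 20262, 44433 and 17798 CPM in KO and to 34272, 17157 and 41828 CPM in WT liver. The 9 neutrophil markers, all with reads, summed to 41.9, 104 and 37.0 CPM in KO and 75.3, 30.7 and 160 CPM in WT liver and were high in the same libraries. All 8 neutrophil markers tested were negative, with a median log2 fold change of -0.74 and 0 at an unadjusted p under 0.05. With the mean of the acute phase genes as a covariate, the log2 fold change of Efna1 was -0.20 (edgeR adjusted p = 0.820). Their part in the level of Efna1 was not tested further. Single libraries moved its log2 fold change to -0.12 (without WT replicate 3) or -0.48 (without WT replicate 2).

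**Figure D4:**
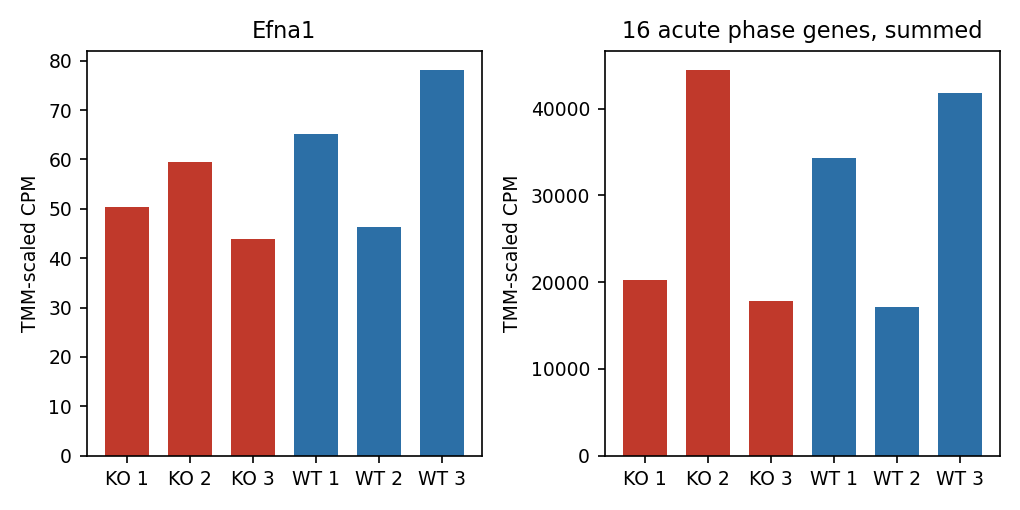
TMM-scaled CPM of Efna1 (left) and of 16 acute phase genes summed (right) in each library, KO bars in red to the left of WT bars in blue. KO replicate 2 and WT replicates 1 and 3 are the 3 highest bars in both panels.

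The other ligands made up the rest. Efna5 encodes ephrin-A5, the ligand that also binds EphB2, on chromosome 17 at 62604184 to 62881317 (minus strand, up to 5 exons). Its level was 15.3, 12.7 and 14.0 CPM in KO liver, against 12.5, 14.0 and 10.1 CPM in WT liver. KO replicate 1 was highest and WT replicate 3 lowest, with overlap between them (log2 fold change 0.20, SE 0.15, 95% interval -0.15 to 0.54, edgeR adjusted p = 0.851). Single libraries moved this value to 0.0772 (without WT replicate 3), 0.13 (without KO replicate 1) or 0.31 (without WT replicate 2). Efna5 held 11.0 ± 1.96% of the ligand sum in KO and 8.42 ± 3.21% in WT liver (SD, n = 3 each). Efna4 had 14 to 30 reads a library and levels of 0.654, 0.986 and 1.34 CPM in KO, against 0.693, 0.882 and 0.670 CPM in WT liver. KO replicate 3 was the highest library and KO replicate 1 the lowest, so the genotypes overlapped fully (log2 fold change 0.40, SE 0.34, 95% interval -0.38 to 1.17, edgeR adjusted p = 0.858). It was 0.13 without KO replicate 3 and 0.62 without KO replicate 1. The ligand sum stood to the receptor sum per kilobase at 1.35, 1.67 and 1.35 in KO and at 1.40, 1.19 and 2.08 in WT liver, so within the 10 genes the ligand sum exceeded the receptor sum in every library, with the highest ratio in WT replicate 3.

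Efna1, Efna3 and Efna4 lie in a row on chromosome 3, all on the minus strand, yet their RNA levels were far apart. In GRCm38, Efna1 covers 89271733 to 89281142, Efna3 89313899 to 89322965 and Efna4 89333390 to 89338028, with 32756 bases between Efna1 and Efna3 and 10424 bases between Efna3 and Efna4. Over all 6 libraries Efna1 had 7759 reads, Efna3 3 and Efna4 120. Per kilobase and over pooled reads, Efna1 exceeded Efna4 by 45.6-fold in KO liver (95% exact interval 36.1 to 58.5) and by 72.3-fold in WT liver (54.5 to 97.8). It exceeded Efna3 by 2465-fold in KO (682 to 20364) and by 5389-fold in WT (967 to 212921). All these intervals cover counting error only, not the spread between mice. Within libraries, the log2 ratio of Efna1 to Efna4 was 6.07, 5.72 and 4.84 in KO and 6.36, 5.52 and 6.67 in WT liver. The genotypes overlapped in this ratio (exact two-sided permutation p = 0.3). Both genes that flank the row were between these extremes: Slc50a1, a sugar transporter, was at 6.95 ± 0.554 CPM per kilobase in KO and 6.26 ± 0.327 in WT, and Adam15, a membrane metalloproteinase, at 5.47 ± 0.574 in KO and 5.05 ± 0.536 in WT liver (SD, n = 3 each). Gm15998, a noncoding gene on the plus strand within Efna3, had 64, 68 and 61 reads in KO and 39, 30 and 79 in WT libraries, although its exons share 344 bases with those of Efna3. A second antisense gene, 4731419I09Rik, shares 168 exon bases with Efna4 and had at most 3 reads a library.

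**Figure D5:**
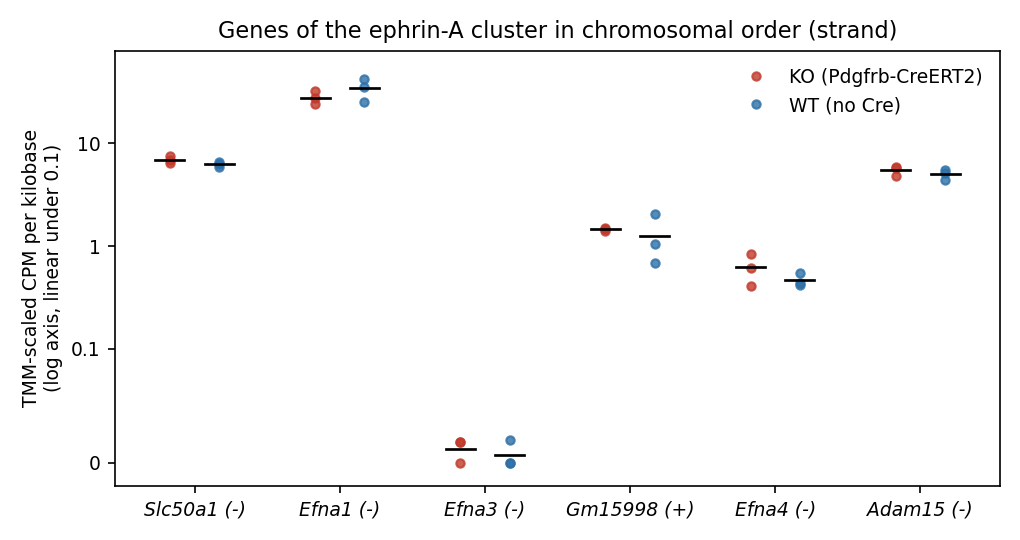
Levels of the genes at the ephrin-A row of chromosome 3 in chromosomal order with their strand, as TMM-scaled CPM per kilobase (log axis, linear under 0.1), KO left of WT, black bars at the means (n = 3 each). Efna1 is highest, Efna3 is at or near 0 in all 6 libraries, and the antisense gene Gm15998 within it lies near 1.

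The promoters of the 3 ligand genes are shown to set beside these levels, in the same layout and with the same 3 motifs as for Epha2. For Efna1 (chr3:89280902-89281201) and Efna3 (chr3:89322890-89323189), each with 2 RefSeq starts, the more upstream one is given, and Efna4 is at chr3:89337979-89338278, all on the minus strand.
Efna1: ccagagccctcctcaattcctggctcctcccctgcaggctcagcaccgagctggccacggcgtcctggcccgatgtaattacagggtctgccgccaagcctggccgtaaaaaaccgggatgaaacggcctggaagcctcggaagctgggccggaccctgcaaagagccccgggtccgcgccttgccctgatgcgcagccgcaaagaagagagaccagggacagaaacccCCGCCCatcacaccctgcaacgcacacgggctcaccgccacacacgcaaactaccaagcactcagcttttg
Efna3: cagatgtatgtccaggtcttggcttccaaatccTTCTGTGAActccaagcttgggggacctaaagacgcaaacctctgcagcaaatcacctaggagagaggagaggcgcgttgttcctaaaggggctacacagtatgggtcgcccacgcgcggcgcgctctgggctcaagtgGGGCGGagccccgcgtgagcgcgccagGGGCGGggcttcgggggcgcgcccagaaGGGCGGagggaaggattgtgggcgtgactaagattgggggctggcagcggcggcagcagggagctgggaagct
Efna4: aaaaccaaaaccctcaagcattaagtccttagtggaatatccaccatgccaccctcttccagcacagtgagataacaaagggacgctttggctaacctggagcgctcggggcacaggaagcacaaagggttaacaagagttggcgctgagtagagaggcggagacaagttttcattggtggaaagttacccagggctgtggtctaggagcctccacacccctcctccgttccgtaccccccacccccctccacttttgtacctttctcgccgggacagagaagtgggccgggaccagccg
The printed windows hold 20 (Efna1), 22 (Efna3) and 11 (Efna4) CpG dinucleotides. At the other start the window of Efna1 holds 20 and that of Efna3 34, a number that 7.73% of promoters reach. The printed window of Efna1 has a single GC box that begins 21 bases before the start. That of Efna3 has 3 GC boxes, beginning 78, 51 and 23 bases before the start, and a STAT motif 217 bases before it. That of Efna4 matches none of the 3 motifs, which says only that these letters are not in this window. At its other start Efna1 has 2 GC boxes, beginning 66 and 55 bases before it. The other start of Efna3 has 3, beginning 145, 57 and 45 bases before it.

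None of the signalling partners of EphA receptors listed here passed the test, and neither did any other gene. A list of 44 signalling partners held the protease Adam10, which cuts ephrin-A ligands from the cell surface, adaptors, kinases, phosphatases and regulators of the cytoskeleton. All 44 were tested and 0 were called in either direction, as over all genes tested (0 of 17083). Of the partners 0 had an unadjusted p under 0.05, against 5.19% of all genes. Of the 44, 16 were positive and 28 negative, with a median log2 fold change of -0.03. Over all 17083 genes tested, 8374 were positive and 8709 negative, with a median of -0.0048. The smallest p among the higher ones fell to the adaptor Nck2 (log2 fold change 0.35, SE 0.16), the Rac activator Tiam1 (0.50, SE 0.25) and the kinase Src (0.24, SE 0.13), and among the lower ones to the guanine nucleotide exchange factor Arhgef5 (-0.15, SE 0.10), and the phosphatases Ptpn11 (-0.13, SE 0.11) and Ptpn1 (-0.29, SE 0.23). Nck2 was at 23.3 ± 0.891 CPM in KO and 18.3 ± 3.98 CPM in WT liver (SD, n = 3 each), without overlap, and the other 5 overlapped. Shc1, an adaptor named here because it is the sole partner lower in every KO library than in any WT library, was at 100.4 ± 3.47 CPM in KO and 106 ± 2.26 CPM in WT liver (SD, n = 3 each). These are 1 higher and 1 lower of 44, beside 6.21% and 4.90% of all genes.

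The B class of the family was measured in the same libraries for comparison. Of its 8 genes, 6 were tested and 0 called, as over all genes tested (0 of 17083). Ephb4 (69.4 ± 1.85 CPM in KO, 63.5 ± 1.42 CPM in WT) and Ephb6 (4.50 ± 0.0636 CPM in KO, 3.57 ± 0.450 CPM in WT; SD, n = 3 each) lay higher in every KO library than in any WT library, as 6.21% of all genes tested did, with edgeR adjusted p-values of 0.850 each.

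The genes whose log2 CPM followed Epha2 and Efna1 most closely over the 6 libraries were picked by Pearson correlation among 14970 genes with a mean of at least 1 CPM. For Epha2 they were Fads1, a fatty acid desaturase (r = 0.998), Ccnb2, cyclin B2 (r = 0.997), and Dgat1, an enzyme of triglyceride synthesis (r = 0.987). For Efna1 they were Tlr2, a receptor for bacterial lipoproteins (r = 0.997), B4galt1, a galactosyltransferase (r = 0.996), and Emc10, a subunit of the endoplasmic reticulum membrane protein complex (r = 0.995). Fads1 was at 280, 251 and 245 CPM in KO and 326, 316 and 279 CPM in WT liver, and B4galt1 at 91.1, 110 and 80.8 CPM in KO and 120, 89.0 and 147 CPM in WT liver. Each r was picked as the highest over 6 libraries and describes these libraries only. Both genes of a pair share the depth and scaling of each library. Above an r of 0.95 there were 20 genes for Epha2 and 236 for Efna1.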

How the data were processed

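Polyadenylated RNA of whole liver from 3 KO and 3 WT mice was made into strand-marked libraries and read on a NovaSeq instrument, per the labels' protocols. The deposited table holds raw counts, whole numbers of reads for each Ensembl gene. STAR 2.7.6a, featureCounts 1.6.3, DESeq2 1.30.0, GRCm38 and mm10 appear, with no role stated, per the submitters' processing notes. Sources used here give neither the strand setting nor the annotation release of the counting. Symbols, bounds and exon lengths came from GENCODE M21 (GRCm38), which held 52083 of 55416 IDs (94.0%). Counts of 25807 genes were 0 in every library, and every pair of libraries differed by more than sampling noise (chi-square per degree of freedom 11.4 to 77.1). The test was edgeR 4.0.16 (R 4.3.3) by quasi-likelihood, with TMM, filterByExpr (minimum count 10, minimum total 15) and genotype as the sole term, at an adjusted p of 0.05, and intervals are 95%. It was tested on simulated data. Over the tested genes the SE of log2 fold changes had a median of 0.159, at a biological coefficient of variation of 0.171. Logged levels used a prior count of 2. Alternatives were DESeq2 1.42.0, limma-voom (limma 3.58.1), other scalings and filters, a robust fit, a replicate block, an acute phase covariate, an adjusted p of 0.1, another gene length and leaving out each library. The named genes followed a rule: the members, Ephb2, 3 partners per direction, the closest correlates, and genes beside or overlapping members. The rule for the members uses names alone, but the members and lists were proposed with earlier results of these data known.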

Additional observations from a re-analysis of the deposited data

How the results depend on the processing

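No member and no signalling partner passed the threshold under any of the 17 alternatives in which they were counted. Not every member could pass in each of them. DESeq2 gave Epha4, Efna3 and Efna4 no adjusted p, and a filter on a CPM of at least 1 in 3 libraries left Efna4 untested. The count over all genes was 0 in the main test, 3 without a filter on low counts and 8 with DESeq2, which gave 13176 genes an adjusted p. It ran from 0 to 2 over the libraries left out, with 2 without WT replicate 3. Leaving out WT replicate 2 took the 886 genes at an unadjusted p under 0.05 to 1858, and leaving out KO replicate 3 took them to 452. Over the libraries left out, the log2 fold change of Epha1 ran from -0.0249 (without WT replicate 2) to 0.178, and that of Epha3 from -0.0518 (without KO replicate 2) to 0.191, with -0.0376 without WT replicate 1. That of Ptpn1 ran from -0.485 to 0.0059 (without WT replicate 3). The cause of these changes of sign was not tested, and none of the values was past the threshold. With the library size as the sole scaling, the median over all genes was 0.08 and Epha2 was at -0.41. Without WT replicate 2, Epha7 (0.54) and Efna1 (-0.48) also had an unadjusted p under 0.05 (edgeR adjusted p = 0.379 each, against 0.379 to 1.00 over the alternatives). Without WT replicate 3 they were 0.24 and -0.12, and with no filter on low counts Epha7 (0.37) again had such a p. With the longest transcript as length, Epha3 held 7.21% of the receptor sum, against 5.80%. In all 9 alternatives, 5 neighbouring pairs kept their order in every library used. Scaling cancels within a library, and leaving out a library cannot break a pair that was in order in all of them. Only the change of gene length could therefore have lowered this count. With the replicate number as a block edgeR called 0 genes and 537 had an unadjusted p under 0.05. The deviations of same-numbered libraries from their genotype means correlated at -0.03, -0.44 and -0.31. With 3 libraries per genotype this cannot show whether the numbers pair the samples. Efna4 and Epha4, with 14 to 43 reads a library, are limited by depth.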
